A study of Mus musculus with 8 samples.

Results

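The Myc, Max and Mxd network is a family of basic helix-loop-helix leucine zipper transcription factors that share DNA sites and dimerization partners. Its 10 members examined here, Myc, Mycl, Max, Mxd1, Mxd3, Mxd4, Mxi1, Mnt, Mlx and Mlxip, were chosen by gene symbol, and each had 1 row among the 34432 gene rows of the expression table. All 10 passed the filter on low values (a normalized read count of at least 10 in at least 4 libraries), as did 11675 genes in all. Libraries were made from the polyadenylated RNA of macrophages grown from mouse marrow precursors, taken at day 7 of differentiation in the unpolarized M0 state and without treatment. The double knockout group (n = 4) had the genotype Cdk8 flox/flox Vav-iCre Cdk19null, and the control group (n = 4) was labelled Vav Cre, with no other allele named. Cdk8 and Cdk19 are the paralogous kinases of the Mediator complex. Vav Cre acts throughout the blood lineage, so Cdk8 was targeted in the precursors of these cells as well, and both groups carry the recombinase. The labels do not give the age or sex of the animals and do not name an animal or culture for each replicate. The p-values therefore measure the spread between these libraries, which may be technical.

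Myc and its relative Mycl bind DNA at the E-box motif CACGTG as dimers with Max and activate genes of growth, ribosome production and metabolism. Max also pairs with the Mxd proteins, with Mxi1 (a member of the Mxd family) and with Mnt, and these dimers recruit the Sin3-histone deacetylase corepressor to the same kind of site. Mlx is a Max-like protein that pairs with the glucose-responsive factor MondoA, encoded by Mlxip, and with some repressors of the Max branch. In cultured macrophages Myc is known as an early target of colony-stimulating factor 1 signalling, and the repressors are known for their expression as cells leave the cell cycle.

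The targeted genes were examined first. Cdk19 had 396, 392, 361 and 342 normalized counts in double knockouts 1 to 4, against 1299, 1295, 1530 and 1682 in controls 1 to 4, so that 25.7% of the control mean was left. Cdk8 had 429, 309, 357 and 294 normalized counts in the double knockouts, against 466, 449, 408 and 432 in the controls, and the groups overlapped. Its log2 fold change was -0.35 ± 0.12 (SE; limma adjusted p = 0.0374), and this call was lost in 10 of 19 alternative settings, those without double knockout 2, 3 or 4 or control 1, 2 or 4 among them (adjusted p up to 0.104). A gene count also takes in reads outside a floxed exon, so it does not measure recombination. Libraries held 17856715 to 21353207 reads, and the groups' depths did not differ beyond the threshold by a 2-sided exact permutation test (p = 0.171). Genes with at least 1 read numbered 14142 ± 169.9 in the double knockouts and 14454 ± 98.5 in the controls (SD, n = 4 each; exact permutation p = 0.0286, the smallest that 70 regroupings can give). Double knockouts 1 and 2 were closer to each other than to the other double knockouts, as were 3 and 4, with chi-square values per gene of 8.04 and 9.11, against 19.3 to 26.5 for the other double knockout pairs. Among the controls this value was 38.3 for 1 and 4 and 26.1 for 2 and 4, against 9.32 to 16.0 for the other pairs. Without control 4, 5156 genes and the same 7 members were called. Averaging each double knockout pair left 4150 genes called, against 5444 as reported, and the same 7 members. Macrophage markers were abundant in both groups, with 5 of 8 lower and 3 higher. That is 62.5% lower and 37.5% higher, beside 23.8% and 22.9% of all tested genes. Mertk rose by 1.08, Mrc1 by 0.59 and Cd68 by 0.57 on the log2 scale, and Csf1r (by 0.80) and Lyz2 (by 0.73) were among the 5 that fell. The 8 markers summed to 192563 to 211068 in the double knockouts and 278021 to 294641 in the controls. Lyz2, the most abundant, averaged 96662 ± 3387 in the double knockouts and 160549 ± 7665 in the controls.

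The activator Myc was lower in the double knockouts. The repressors Mxi1, Mnt and Mxd4 were higher, while Mxd3 was lower and Mxd1 did not pass. By limma on log2(normalized count + 1) with Benjamini-Hochberg adjustment over all 11675 genes, 4 of the 10 members rose (Mxi1, Mnt, Mxd4 and Max), 3 fell (Myc, Mycl and Mxd3) and 3 did not pass the threshold of 0.05 (Mxd1, Mlx and Mlxip). Mycl passed the filter only through the controls, so its call rests on the group where it is high and is no support. The background was high: 46.6% of all tested genes passed, 22.9% higher and 23.8% lower in the double knockouts. The 7 called members, Mycl included, were also the 7 with no overlap between groups, against 42.9% of all tested genes, 21.2% higher and 21.7% lower. A call of at least 2-fold was made for 10.9% of tested genes, and Myc, Mycl, Mxd3 and Mxi1 were among them. Over all tested genes the log2 fold change had a median of 0.01. In these bulk samples, fewer cells of a type and less RNA per cell cannot be told apart.

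**Figure D1:**
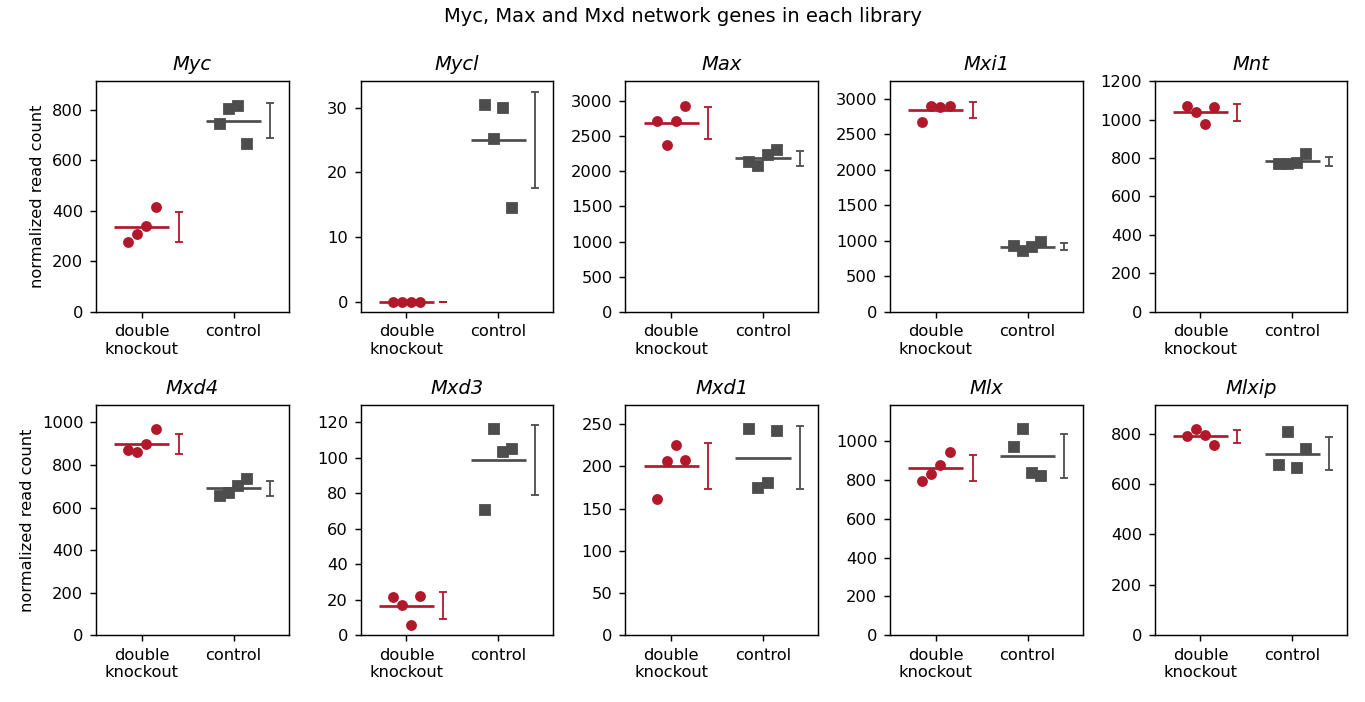
Normalized read counts of the 10 network genes, 1 panel per gene with its own linear axis. Each point is 1 library, horizontal lines are group means and vertical bars are ± 1 SD (n = 4 per group). Myc, Mycl and Mxd3 are lower in every double knockout than in any control, Max, Mxi1, Mnt and Mxd4 are higher in every double knockout, and Mxd1, Mlx and Mlxip overlap.

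Myc (ENSMUSG00000022346), the main activator of the network, lies on chromosome 15 at 61985391 to 61990374 on the plus strand (mm10, GENCODE M21; all positions below are of this build). Its normalized read count was 277, 309, 340.1 and 416 in double knockouts 1 to 4, against 746, 803, 817 and 666 in controls 1 to 4. Every double knockout was below every control, with no library in between. The mean was 335 ± 59.7 in the double knockouts and 758 ± 68.5 in the controls (SD, n = 4 each), or 44.2% of the control level. The log2 fold change was -1.19 ± 0.13 (SE), with a 95% interval of -1.47 to -0.91 (limma adjusted p = 1.42e-05). A change at least as large in either direction was fitted for 9.60% of all tested genes.

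Mycl (ENSMUSG00000028654) encodes L-Myc, a second activating partner of Max, and lies on chromosome 4 at 122995652 to 123002485. It had no read in any double knockout, against 30.5, 25.1, 30.0 and 14.5 normalized counts in controls 1 to 4, which held 99 reads in all. Taking 3 reads per library as the limit that a count of 0 allows, its level was at least 8.29-fold lower in the double knockouts. That floor covers counting error only. Mycn, the third activator of the family, was below the filter: it had no read in the double knockouts and 3 reads in control 2 alone among the controls.

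Max (ENSMUSG00000059436), the common partner through which the other members of its branch bind DNA, lies on the minus strand of chromosome 12 at 76937269 to 76962201. It had 2718, 2377, 2717 and 2936 normalized counts in double knockouts 1 to 4, against 2133, 2074, 2229 and 2305 in controls 1 to 4. The lowest double knockout was above the highest control by a narrow margin. Max rose by 0.30 ± 0.07 on the log2 scale (SE), to 123% of the control mean, with a 95% interval of 0.14 to 0.45 (limma adjusted p = 0.00583). This was the smallest change among the 7 called members.

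Mxi1 (ENSMUSG00000025025), which encodes a repressive Max partner of the Mxd family, showed the largest rise in the network. It lies on chromosome 19 at 53310518 to 53375810 on the plus strand. Its normalized counts were 2670, 2894, 2883 and 2901 in double knockouts 1 to 4, against 927, 849, 911 and 979 in controls 1 to 4. The highest control was far below the lowest double knockout, and the double knockouts lay close together apart from the first. The mean was 2837 ± 112 in the double knockouts and 916 ± 53.5 in the controls (SD, n = 4 each), or 310% of the control level. The log2 fold change was 1.63 ± 0.07 (SE; 95% interval 1.48 to 1.78; limma adjusted p = 4.08e-09). Only 5.89% of all tested genes had a change at least as large in either direction.

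Mnt and Mxd4 rose by smaller amounts. Mnt (ENSMUSG00000000282), a broadly expressed repressor that competes with Myc for Max, lies on chromosome 11 at 74830920 to 74845725. It had 1072, 1038, 975 and 1064 normalized counts in double knockouts 1 to 4, against 767, 771, 776 and 819 in controls 1 to 4. The groups did not overlap, and the log2 fold change was 0.41 ± 0.07 (SE; limma adjusted p = 5.77e-04). Mxd4 (ENSMUSG00000037235), a member of the Mxd family of repressors, lies on the minus strand of chromosome 5 at 34173883 to 34187720. It had 872, 859, 897 and 967 normalized counts in double knockouts 1 to 4, against 656, 669, 702 and 734 in controls 1 to 4. Here too every double knockout exceeded every control, with a log2 fold change of 0.38 ± 0.08 (SE; limma adjusted p = 0.00171). Opposite-strand genes share 6.06% of the exon bases of Mxd4, 2.84% of those of Mxi1 and 3.21% of those of Mlxip. The one at Mxi1, Gm10197, was at 0 in every library, and the expression table had no row under the symbols of the others, Gm42846 and Gm15747.

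Mxd3 (ENSMUSG00000021485) moved against the other called repressors. In mouse tissues this family member is known for its expression in dividing cells, in S phase, unlike the other Mxd genes. It lies on the minus strand of chromosome 13 at 55325168 to 55329823. Mxd3 had 21.4, 17.1, 6.0 and 22.4 normalized counts in double knockouts 1 to 4, against 70.8, 116, 103 and 105 in controls 1 to 4. All double knockouts were below all controls, at 16.9% of the control mean, and the log2 fold change was -2.61 ± 0.38 (SE; 95% interval -3.44 to -1.78; limma adjusted p = 1.65e-04). The wide interval goes with the low counts. Double knockout 3 was below the filter value of 10, so the double knockouts alone did not meet the filter. Mxd3 shares 105 exon bases with Prelid1 on the opposite strand, and the sources used here do not state whether strand was used in counting. Prelid1 was higher in the double knockouts (log2 fold change 0.26, limma adjusted p = 0.0119), the opposite direction to Mxd3.

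Mxd1 (ENSMUSG00000001156), the founding Mxd repressor, known for its rise as myeloid cells differentiate, lies on the minus strand of chromosome 6 at 86647042 to 86669161. It had 161, 206, 225 and 208 normalized counts in double knockouts 1 to 4, against 244, 175, 181 and 242 in controls 1 to 4. The groups overlapped and the controls spanned nearly the whole range. The log2 fold change was -0.07, with a 95% interval of -0.42 to 0.28 (limma adjusted p = 0.763).

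Mlx and Mlxip, the dimer partners of the glucose-responsive branch, did not pass the test. Mlx (ENSMUSG00000017801) lies on chromosome 11 at 101087277 to 101092207 and had 791, 829, 877 and 944 normalized counts in double knockouts 1 to 4, against 969, 1059, 835 and 821 in controls 1 to 4. The groups overlapped, with a log2 fold change of -0.09 and a 95% interval of -0.31 to 0.12 (limma adjusted p = 0.472). Mlx shares 19.3% of its exon bases with Psmc3ip on the opposite strand, and Psmc3ip fell by 1.84 on the log2 scale (limma adjusted p = 2.18e-06), so reads of the overlap cannot be assigned with certainty. Mlxip (ENSMUSG00000038342) lies on chromosome 5 at 123394798 to 123457932 and had 788, 816, 794 and 755 normalized counts in double knockouts 1 to 4, against 674, 804, 663 and 741 in controls 1 to 4. Its log2 fold change was 0.13, with a 95% interval of -0.05 to 0.32 (limma adjusted p = 0.213). Mlxipl, which encodes the related factor ChREBP, was below the filter, with 8 reads over the double knockouts and 5 over the controls.

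**Figure D2:**
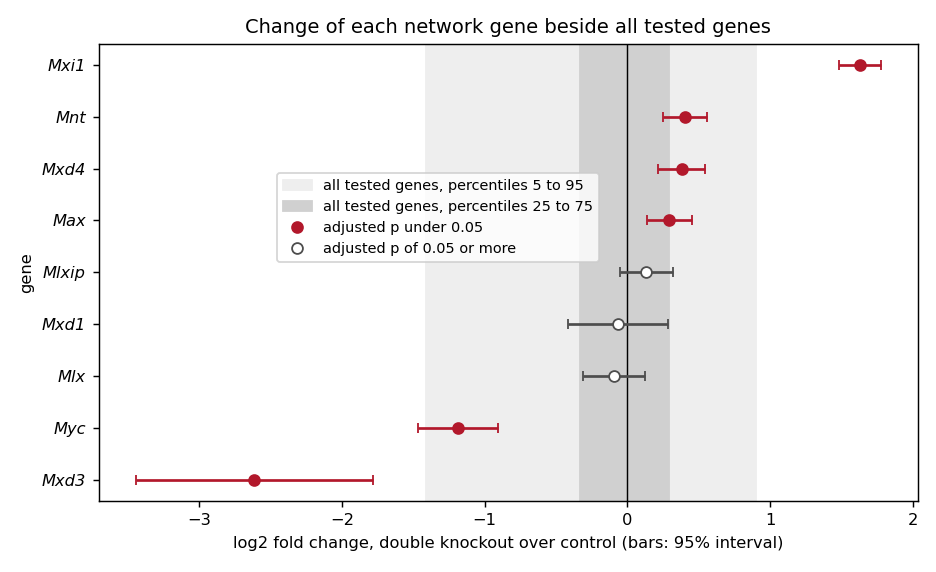
Log2 fold change, double knockout over control, of 9 network genes from limma on log2(normalized count + 1), with 95% intervals as bars and n = 4 libraries per group. Shaded bands hold the middle of all 11675 tested genes (percentiles 25 to 75 are -0.33 to 0.30, and 5 to 95 are -1.41 to 0.90). Mxi1 lies above the outer band, Mxd3 below it and Myc between the 2 bands' lower edges. Mycl is left out because every double knockout had 0 reads and its fitted value depends on the pseudocount.

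The E-box CACGTG was searched for in the RefSeq promoter sequences (GRCm38, the NCBI name of mm10), 300 bases running from 250 before to 50 after each annotated start. The motif reads the same on both strands. Of the 10 members, 9 had an entry, Myc having none, and 4 of these held the motif: Max, Mnt, Mxd4 and Mlx. Among all 32851 promoters in the table, which belong to 27025 genes, 7.15% held it. This share is per promoter and not per gene. The 9 members had 11 promoters, and each of the 4 genes held the motif in 1 promoter. The 4 windows are shown because the network's own binding motif lies in 3 of the members that rose and in 1 that did not pass the test. They are printed in the direction of the gene, with the motif in capitals.
Max (chr12:76962199-76962311, minus strand): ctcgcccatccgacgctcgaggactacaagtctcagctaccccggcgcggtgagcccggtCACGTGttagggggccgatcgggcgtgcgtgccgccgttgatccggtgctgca
Mnt (chr11:74830741-74830866, plus strand): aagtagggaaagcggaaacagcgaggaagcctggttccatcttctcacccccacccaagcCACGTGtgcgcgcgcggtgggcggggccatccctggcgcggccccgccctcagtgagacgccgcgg
Mxd4 (chr5:34187864-34187960, minus strand): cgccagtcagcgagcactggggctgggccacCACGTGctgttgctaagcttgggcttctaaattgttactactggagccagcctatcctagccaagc
Mlx (chr11:101087190-101087315, plus strand): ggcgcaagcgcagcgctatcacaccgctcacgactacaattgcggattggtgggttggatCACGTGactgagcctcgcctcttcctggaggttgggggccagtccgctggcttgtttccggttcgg

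The first base of the motif lay at position -3 from the start in Max, -40 in Mlx, -123 in Mnt and -219 in Mxd4. Mxi1, which rose most, had 3 annotated starts and no CACGTG in any of their windows. Mycl, Mxd1, Mxd3 and Mlxip had none in theirs. A match describes these letters only, and no binding was measured. E2F-like sites (TTTGGCGC, TTTCCCGC or TTTCGCGC on either strand) were found in 0 of the 9 member genes and in 1.84% of all promoters. The member promoters had 55 to 76.7% G and C, against a median of 53% over the table.

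Levels of different genes can be compared per length only. Per kilobase of annotated exon, Max was the most abundant member in both groups, at 747 ± 64.2 normalized counts per kilobase in the double knockouts and 607 ± 28.5 in the controls (SD, n = 4 each). In the double knockouts Mlx (430 ± 33.0) and Mxi1 (416 ± 16.4) came next and overlapped each other, followed by Mnt (224 ± 9.47). Myc (123 ± 22.0) and Mxd4 (106 ± 5.65) then overlapped, above Mlxip, Mxd1, Mxd3 and the undetected Mycl. In the controls Mlx came next after Max, followed by Myc at 279 ± 25.2 per kilobase, then Mnt (169 ± 5.23) and then Mxi1 (134 ± 7.85). Mlxip and Mxd4 overlapped below these, as did Mxd3 and Mxd1, and Mycl came last. Myc thus had rank 5 of 10 in the double knockouts and rank 3 in the controls, and Mxi1 rank 3 in the double knockouts and rank 5 in the controls. With the longest transcript as the length, Myc had rank 6 in the double knockouts and rank 3 in the controls, and Mxi1 rank 2 in the double knockouts and rank 4 in the controls.

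The ratio of Myc to Mxi1 per kilobase was 0.260, 0.268, 0.296 and 0.36 in double knockouts 1 to 4, against 2.02, 2.38, 2.25 and 1.71 in controls 1 to 4. Mxi1 transcripts thus outnumbered Myc transcripts per length in every double knockout, and the reverse held in every control. The ratio of Myc to Max was 0.135, 0.172, 0.166 and 0.188 in the double knockouts, against 0.463, 0.513, 0.485 and 0.383 in the controls. These ratios restate the members' changes and carry no test.

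Summed over the 7 Max partners among the members, the share of Myc and Mycl was 11.9, 12.6, 13.9 and 15.9% in double knockouts 1 to 4, against 38.9, 40.5, 40.5 and 33.9% in controls 1 to 4. The share of Mxi1 was 44.2 to 47.1% in the double knockouts and 16.7 to 19.5% in the controls. The 5 repressors together reached 758 to 808 normalized counts per kilobase in the double knockouts and 443 to 486 in the controls. The share of Mnt overlapped between groups, at 23.5 to 27.0% in the double knockouts and 22.0 to 24.1% in the controls. With the longest transcript as the length, the share of Myc and Mycl was 10.6 to 14.2% in the double knockouts and 31.0 to 37.5% in the controls. Transcript shares do not give protein or dimer shares, which were not measured.

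**Figure D3:**
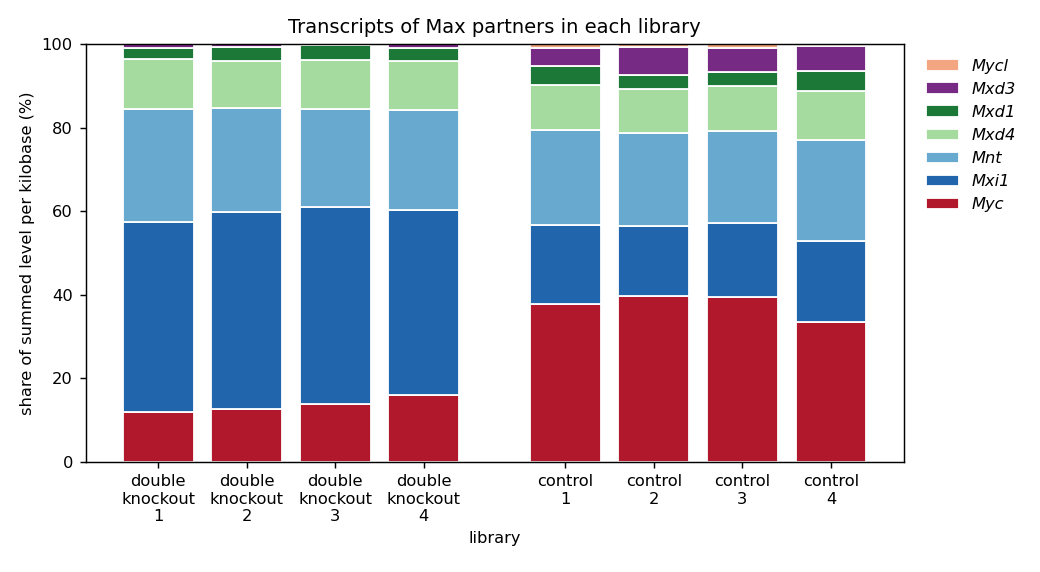
Share of each Max partner in the summed level per kilobase of the 7 partners among the members (vertical axis, percent), 1 stacked bar per library, with the double knockouts on the left. Myc takes 11.9 to 15.9% of the sum in the double knockouts and 33.4 to 39.7% in the controls, and Mxi1 takes 44.2 to 47.1% in the double knockouts and 16.7 to 19.5% in the controls.

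Mga encodes a large Max partner found in a Polycomb repressive complex. It had 1203, 1011, 744 and 727 normalized counts in double knockouts 1 to 4, against 717, 689, 1479 and 1459 in controls 1 to 4. Double knockouts 1 and 2 and controls 3 and 4 were the high libraries of their groups, and the groups overlapped. Its log2 fold change was -0.17 ± 0.29 (SE; limma adjusted p = 0.653).

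Genes known as Myc targets were lower far more often than higher. The 91 tested genes of 5 target lists had 2 members that rose (Tfrc and Hspe1), 54 that fell and 35 that did not pass, with a median log2 fold change of -0.33, against 0.01 over all tested genes. That is 2.20% higher and 59.3% lower, beside 22.9% and 23.8% of all tested genes. The lists were chosen with earlier results of these data known, so these shares describe the listed genes and test no enrichment. The lists were not alike. Cell cycle targets had the lowest median, -1.76, with 11 of 12 lower (91.7%). Glycolysis targets had the highest, -0.09, with 0 higher and 3 of 11 lower (27.3%), near the 23.8% of all tested genes.

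Among cell cycle targets, Ccnd1, which encodes cyclin D1, averaged 6593 ± 220 normalized counts in the double knockouts and 26444 ± 1283 in the controls (limma adjusted p = 4.23e-10). Ccna2 (cyclin A2) fell by 3.17 on the log2 scale. E2f2, an E2F factor of the G1/S transition, fell by 2.54, and Mcm7, a subunit of the replicative helicase, fell by 2.24. E2f3 was the 1 gene of the list that did not pass.

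Among nucleotide and polyamine synthesis targets, 17 of 22 fell (77.3%), 1 rose (4.55%) and 4 did not pass, with a median of -0.67. These shares, and those of the next list, stand beside 23.8% lower and 22.9% higher of all tested genes. The listed gene that rose was Tfrc, which encodes the transferrin receptor and is not a synthesis enzyme. Falls that passed included Tyms (thymidylate synthase), with a log2 fold change of -2.64, Impdh2 (guanine nucleotide synthesis), with -0.90, and the purine synthesis enzymes Paics, with -0.78, and Gart, with -0.72. Odc1, the rate-limiting enzyme of polyamine synthesis and a classical Myc target, did not pass. Among ribosome biogenesis targets, 16 of 30 fell (53.3%), 0 rose and 14 did not pass, with a median of -0.31. Nop58 and Nop56, core proteins of box C/D small nucleolar particles, had log2 fold changes of -1.29 and -1.05, Dkc1 (dyskerin) of -1.06 and Nolc1 of -0.65, all falls that passed.

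Of 16 translation and chaperone targets, 7 fell (43.8%), 1 rose (6.25%) and 8 did not pass, with a median of -0.19. Over all tested genes, 23.8% fell and 22.9% rose. Falls that passed included Pa2g4 (log2 fold change -1.09), the splicing regulator gene Hnrnpa1 (-0.59) and Ran, the nuclear transport GTPase (-0.34). Eif2s1, which encodes a subunit of the translation initiation factor eIF2, fell by 0.68. Among glycolysis targets, Slc16a1, a lactate transporter, stood apart with 198 ± 22.8 normalized counts in the double knockouts and 657 ± 37.6 in the controls, a fall of 1.73 on the log2 scale (limma adjusted p = 1.36e-07). Eno1 (enolase) fell by 0.27. Slc2a1, the glucose transporter GLUT1, fell by 0.28 with overlapping groups, and its call was lost without double knockout 1 or 2 or control 2 or 3. Tpi1 had a log2 fold change of 0.19 and did not pass, but passed without double knockout 2 or without control 2. Without control 2, 3 glycolysis genes were called higher, against 0 with all libraries.

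The general markers of dividing cells were measured beside these targets. Of all tested genes, 23.8% were lower and 22.9% higher, and the marker counts stand beside these shares. All 12 proliferation markers fell (100%), with a median of -2.95. They summed to 11836 to 12054 normalized counts in the double knockouts and 40182 to 43733 in the controls. Mki67 averaged 355 ± 28.7 normalized counts in the double knockouts and 3838 ± 370 in the controls, and Rrm2 averaged 237 ± 32.6 in the double knockouts and 3360 ± 158 in the controls. Monocyte markers (4 of 8 lower, or 50%, and 0 higher) summed to 660 to 785 in the double knockouts and 2753 to 3270 in the controls. Ccr2, the most abundant of them in the controls, averaged 83.6 ± 19.4 in the double knockouts and 1294 ± 21.7 in the controls. Ly6c2 (210 in the double knockouts, 186 in the controls) and Plac8 (220 in the double knockouts, 194 in the controls) were among the 4 that did not pass. Neutrophil markers (7 of 8 tested lower, or 87.5%, and 0 higher) summed to 1000 to 1262 in the double knockouts and 2370 to 3910 in the controls. Camp had 6.80 to 10.1 normalized counts in the double knockouts and 17.8 to 46.3 in the controls. It passed the filter only through the controls, so its call among the 7 is no support. The part of dividing cells or of other cell types in the changes of Myc, Mxd3 and the target lists was not tested.

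Markers of other cell types were mostly low. Dendritic cell markers summed to 33.1 to 66.3 in the double knockouts and 57.7 to 89.7 in the controls, and stromal markers to 103 to 294 in the double knockouts and 234 to 332 in the controls. Lymphocyte markers summed to 25.2 to 39.2 in the double knockouts and 16.6 to 49.1 in the controls, with Cd3e, Cd3g and Ncr1 at 0 in all libraries. Of the mast cell, megakaryocyte and erythroid markers, Hba-a1 was at 0 and Pf4, a chemokine gene that macrophages also express, rose by 0.95 on the log2 scale and made up nearly all of a sum of 7757 to 8016 in the double knockouts and 3737 to 4312 in the controls.

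Genes described as repressed by Myc included some that were higher and some that were lower. Of 7 tested genes of 9 listed, 3 rose, 2 fell and 2 did not pass, with a median of 0.16. That is 42.9% higher and 28.6% lower, beside 22.9% and 23.8% of all tested genes. Gadd45a, a stress-induced growth arrest gene, had 839, 828, 1036 and 1108 normalized counts in double knockouts 1 to 4, against 292, 234, 209 and 167 in controls 1 to 4, a log2 fold change of 2.09. Ndrg1 rose by 1.54 and Cebpa, a myeloid transcription factor gene, by 1.32, each without overlap. In contrast, the cyclin-dependent kinase inhibitor genes Cdkn1a (log2 fold change -0.83) and Cdkn2c (-2.85) fell. Cdkn2c averaged 228 ± 6.70 normalized counts in the double knockouts and 1655 ± 150 in the controls (limma adjusted p = 7.07e-10). Cdkn1b and Cdkn2b, of the same class, had log2 fold changes of 0.16 and -0.05 and did not pass.

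The known targets of MondoA and Mlx were examined beside Mlx and Mlxip, which did not pass. Of 8 tested genes of 9 listed, 5 rose, 2 fell and 1 did not pass, with a median of 0.72. That is 62.5% higher, against 22.9% of all tested genes, and 25% lower, near the 23.8% of all tested genes. Txnip, the best known MondoA target and an inhibitor of glucose uptake, had 5584, 4664, 5339 and 5089 normalized counts in double knockouts 1 to 4, against 8358, 7781, 7507 and 7798 in controls 1 to 4. Every double knockout was below every control, a fall of 0.61 on the log2 scale (limma adjusted p = 1.71e-05). Its relative Arrdc4 went the other way, with 323, 424, 402 and 349.8 in the double knockouts and 203, 169, 162 and 107 in the controls (log2 fold change 1.25). Pfkfb3, which makes an allosteric activator of glycolysis, rose by 1.10. Rgs16 rose as well and averaged 71.4 ± 9.88 in the double knockouts and 24.95 ± 6.73 in the controls. Gpd1 had 20.1 to 31.2 normalized counts in the double knockouts and 0 to 6.75 in the controls. It passed the filter only through the double knockouts, so its call among the 5 is no support. The 62.5% and the median of 0.72 include Gpd1, and without it the median is the value of Hk2, 0.33. Arrdc3 rose by 0.23 with overlapping groups and Klf10 fell by 0.19. Hk2 (log2 fold change 0.33) did not pass, and Pklr was listed at 0 in every library. In 9 of 19 alternative settings, those without double knockout 1, 2 or 4 or control 1 or 3 among them, 1 target rather than 2 was called lower.

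The Sin3-histone deacetylase corepressor, the partner of the Mxd, Mxi1 and Mnt repressors, had 3 of 13 members higher, 6 lower and 4 not passing, with a median of -0.20. The share higher was 23.1%, near the 22.9% of all tested genes, and the share lower was 46.2%, against 23.8%. Rbbp7, a histone-binding subunit, averaged 1949 ± 125 normalized counts in the double knockouts and 4293 ± 113 in the controls, a fall of 1.14 on the log2 scale (limma adjusted p = 4.13e-08). The log2 fold change was -0.53 for Sap30, -0.43 for Hdac1, a histone deacetylase, and -0.35 for Rbbp4, and all these falls passed. Sin3b was among the 3 that rose (log2 fold change 0.37). Of 17 Myc cofactors, 12 did not pass, 3 rose (Cdk9 by 0.37, Crebbp by 0.35 and Bptf by 0.34) and 2 fell (Hcfc1, with a log2 fold change of -0.25, and Ruvbl2). That is 17.6% higher and 11.8% lower, both below the 22.9% and 23.8% of all tested genes. Under quantile normalization 5 cofactors rose, not 3.

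Among 17 genes that control Myc protein stability, 5 rose, 4 fell and 8 did not pass, with a median of 0.15. That is 29.4% higher and 23.5% lower, near the 22.9% and 23.8% of all tested genes. Fbxw7, which encodes the substrate receptor of a ubiquitin ligase that degrades Myc, averaged 504 ± 50.3 normalized counts in the double knockouts and 357 ± 12.0 in the controls, a rise of 0.49 (limma adjusted p = 0.00153). Usp36, a deubiquitinase that opposes it, rose by 0.64. Aurka and Cip2a, both known to protect Myc from degradation and both cell cycle dependent, fell, with log2 fold changes of -2.07 and -2.20, as did Skp2 (-0.81). In 7 of 19 alternative settings, those without double knockout 3 or 4 or control 2 among them, 3 of these genes rather than 5 were called higher. Myc protein was not measured.

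**Figure D4:**
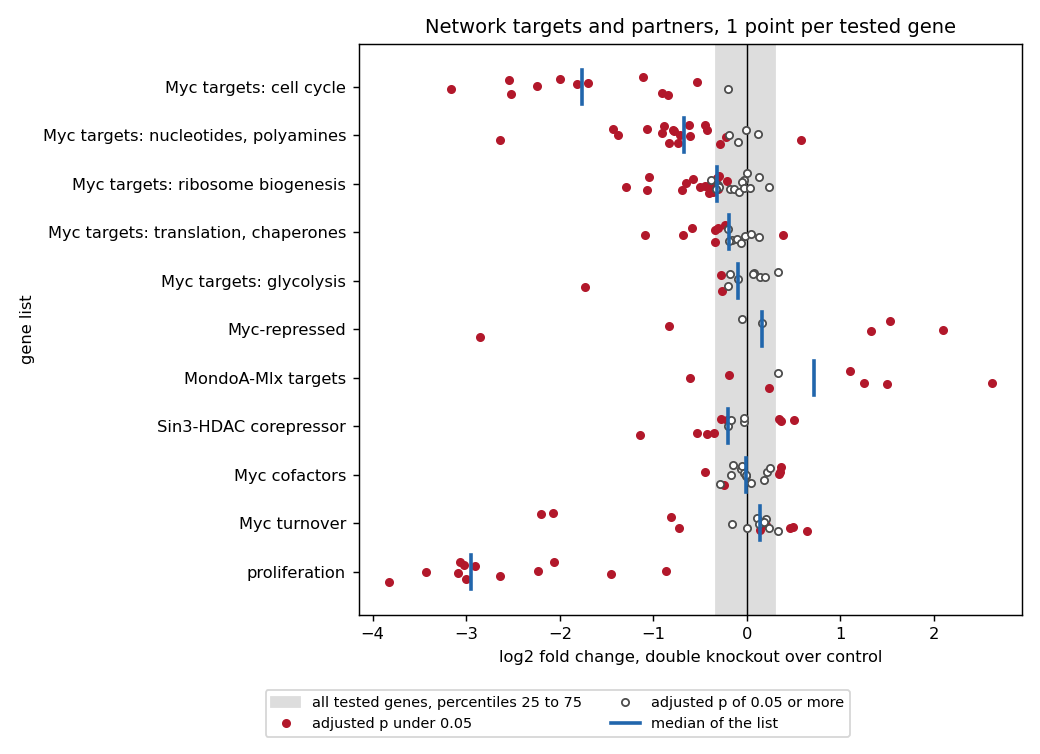
Log2 fold change, double knockout over control, of each tested gene in 11 lists of targets and partners, 1 point per gene, from limma on log2(normalized count + 1) with n = 4 libraries per group. Filled points have an adjusted p under 0.05, vertical marks are list medians and the shaded band holds percentiles 25 to 75 of all tested genes. Cell cycle targets (median -1.76) and proliferation markers (median -2.95) lie to the left, and glycolysis targets (median -0.09) lie around the band. MondoA-Mlx targets spread to the right, with a median of 0.72 that includes Gpd1 and of 0.33 without it.

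The genes most like Myc were found by the root-mean-square difference between log2 values, each centred on its own mean over the 8 libraries, among 10021 tested genes with a mean of at least 50. The nearest was Impa2, with a difference of 0.0841, followed by Tubb4b (0.110), Pfas (0.119), Nup43 (0.124) and Psip1 (0.124). Impa2 encodes an inositol monophosphatase, Tubb4b a beta-tubulin, Pfas an enzyme of purine synthesis and Nup43 a nucleoporin. Impa2 averaged 128 ± 19.3 normalized counts in the double knockouts and 299.9 ± 18.6 in the controls. The 5 genes had log2 fold changes between -1.27 and -1.03, near that of Myc, so the difference between groups is part of the likeness.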

How the data were processed

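The deposited table holds signal values that the authors made from read counts divided by a size factor per library, since the values of every library are whole multiples of 1 step (100% of values within 0.01). Per the submitters' processing notes, Salmon 1.4.0, DESeq2 and the mm10 build were used. Strand use and the counting of multi-mapped reads were not given in the sources used here. Nor was it given whether the whole numbers called reads here are rounded estimates. Dividing by the step gave 17856715 to 21353207 whole reads per library, and 34372 of 34432 gene IDs matched GENCODE M21, which gave positions and exon lengths. The 11675 genes that reached a normalized count of 10 in 4 or more libraries were tested with limma 3.58.1 in R 4.3.3, on log2(value + 1) with the trend and robust options, and p-values were adjusted by Benjamini-Hochberg (threshold 0.05). A fold change on this scale understates the change of low genes. The script was tested on simulated data. edgeR 4.0.16 and DESeq2 1.42.0 on the whole reads were alternatives, among 19 settings.

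The 10 members and the lists were chosen with earlier results of these data known. The share of any list beside that of all tested genes is therefore a description and no test. The members and Mga, Mycn, Mlxipl, Cdk8 and Cdk19 were always named, with up to 4 genes of smallest adjusted p per list and the 5 genes most like Myc. Other genes named (Tfrc, Hspe1, Odc1, E2f3, Ruvbl2, Sin3b, Fbxw7, Mrc1, Camp, Elane, Ly6c2, Plac8, Prelid1, Psmc3ip and the remaining Myc-repressed genes and MondoA targets) were chosen after their values were seen.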

Additional observations from a re-analysis of the deposited data

Results flagged for a closer look

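In 9 of 152 groups of 4 libraries looked at, 1 library lay far from the other 3 by Dixon's test (95% critical value). Chance flags about 1 in 20 such groups. Only 1 was a network member: Mxi1 had 2670 normalized counts in double knockout 1, below 2883 to 2901 in the other double knockouts and still above every control.

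Double knockout 1 also lay apart for Cd68 (25633, against 23764 to 23920 in the other double knockouts), for Col1a1 (156, against 35.1 to 54.3), for Mcm7 (735, against 827 to 842) and for S100a9 (114, against 145 to 151). Cdk9 had 2882 in double knockout 3, against 2529 to 2563 in the other double knockouts. Xcr1 had 30.2 in double knockout 4, against 48.0 to 51.5. Among the controls, Fn1 had 628 in control 2, against 267 to 327 in the other controls, and Tyms had 1004 in control 1, against 1149 to 1173.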

How the results depend on the processing

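Over the 19 alternatives, the number of genes called ranged from 4150 (double knockout pairs averaged) to 5678 (DESeq2), against 5444 as reported and 5379 with edgeR. Leaving out 1 library gave 4669 to 5333. The 7 called members stayed called in all, except that Mycl was not tested with a minimum value of 50. The log2 fold change of Myc ranged from -1.30 to -1.10 and that of Mxi1 from 1.59 to 1.66. The highest adjusted p of Max was 0.0226 and that of Mxd4 0.0145. Mxd1, Mlx, Mlxip and Mga were called in 0 settings. With the replicate block, 4649 genes were called. Same-numbered libraries had correlations of -0.053 to 0.032 and none correlated best with its own number, so no pairing by number was seen. Whether same-numbered libraries shared an animal, culture or day is not known from the labels. Of 1404 values for 74 named genes, 1371 kept their side of the threshold, 28 no longer passed (10 of them Cdk8), 5 newly passed, and 0 called values changed sign. The uncalled log2 fold change of Mxd1 ranged from -0.15 to 0.05. Quantile normalization moved the median of all genes by 0.06 on the log2 scale. Low counts limit Mxd3 and Mycl.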
